A study of Mus musculus with 3 samples.

Results

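Among the cells of the mouse meninges, the membranes that wrap the brain, natural killer (NK) cells were selected on their transcripts. Barcodes counted as cells when they held at least 500 unique molecular identifiers (UMIs, each standing for 1 captured RNA molecule), 174 to 4548 genes and under 8.3% of UMIs from mitochondrial genes. A cell was kept as an NK cell when 8 genes (*Gzma*, *Nkg7*, *Klre1*, *Klrk1*, *Ncr1*, *Klra4*, *Klra8* and *Xcl1*) made up at least 0.4% of its UMIs, at least 3 of the 8 were detected, and *Cd3d*, *Cd3e* and *Cd3g*, which encode chains of the T cell receptor complex, gave at most 1 UMI together. This rule kept 173 of 7057 cells. Of these, 59 came from HC replicate 1, 41 from HC replicate 2 and 73 from CSD replicate 1. HC stands for home cage, without stress, and CSD for chronic social defeat, in which a mouse met an aggressive CD-1 mouse in daily encounters for 14 days and was otherwise housed beside it behind a perforated barrier. All mice were male C57BL/6J, aged 10 to 12 weeks. Each library was made from the pooled meninges of 4 mice, so the 2 HC libraries stand for 8 mice and the lone CSD library for 4, which had been picked as stress-susceptible by behavior and were killed 2 h after the last encounter. Pial and arachnoid membranes and those attached to the skull were dissected, live nucleated single cells were sorted, and each pool ran in its own lane of 1 chip, so lane and library cannot be told apart.

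NK cells are innate lymphocytes that kill infected, stressed or transformed cells without a rearranged antigen receptor. They weigh signals from activating receptors, such as NKp46 (encoded by *Ncr1*) and NKG2D (*Klrk1*), against those from inhibitory receptors that read MHC class I. Among the inhibitory receptors are many of the Ly49 family (*Klra* genes), which also holds activating ones, and CD94 (*Klrd1*) with its NKG2 partners. Killing runs through granules that hold perforin and granzymes, and NK cells also secrete interferon gamma and the chemokines CCL3, CCL4, CCL5 and XCL1. Type 1 innate lymphoid cells (ILC1s) are close relatives that carry NKp46 and NK1.1 as well. They tend to stay in tissues, and in mice they differ from NK cells by low or absent EOMES and by CXCR6, CD49a and the interleukin-7 receptor.

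The selected cells matched the label in several genes that the rule did not use, with a qualification given with their clusters. *Klrb1c*, which encodes NK1.1, stood at 756, 709.6 and 663 CPM (a gene's UMIs over all UMIs summed for those cells, scaled to a common total) in the NK cells of HC replicate 1, HC replicate 2 and CSD replicate 1 (values in this order from here on), against 36.4, 30.3 and 49.2 in T cells. T cells were 375 cells with at least 2 Cd3 UMIs, under 0.4% of UMIs from the 8 genes and at most 1 UMI from *Cd79a* and *Cd79b*. *Klrd1* stood at 843, 884 and 782 and *Eomes*, a transcription factor of NK cells, at 43.6, 131 and 133. *Eomes* was seen in only 5 of 59, 7 of 41 and 15 of 73 NK cells, and granzyme B (*Gzmb*) in 18, 8 and 24. Perforin (*Prf1*), another NK marker, had few UMIs, which are given with the clusters. *Cd4*, *Cd5* and *Cd6* had no UMI in any of the 173 cells, and *Cd8a* had 1, 2 and 1 UMIs. Of 12 genes of type 2 and type 3 innate lymphoid cells, 7 had no UMI, among them *Il1rl1*, *Il5*, *Il13*, *Il17a*, *Il22* and *Il23r*. The other 5, *Gata3*, *Areg*, *Rora*, *Arg1* and *Icos*, were detected. All 12 together summed to 116, 98.3 and 101 CPM in NK cells and 146, 118 and 164 in T cells. In all cells other than NK cells the sums were 31.9, 36.3 and 24.3. The NK cells of each library held 137595, 91595 and 158482 UMIs in total, with a median per cell of 2080, 1982 and 1930 UMIs and 920, 889 and 843 genes. No barcode of an NK cell was shared between libraries. Free RNA was present in all 3 libraries. A list of 13 neutrophil genes, among them *S100a8* and *S100a9*, made up 34659.7, 31541 and 38433 CPM in NK cells. In empty barcodes (at most 100 UMIs) they made up 115705, 138544 and 174900.0, and in T cells 92433, 101959 and 115155. Per cell, their median share of UMIs was 3.41%, 3.223% and 3.992% in T cells and 3.439%, 3.218% and 3.895% in NK cells. Among the T cells, 15, 14 and 19 held over 5%, up to 50.97%, 49.13% and 52.31%. These cells were kept in every T cell value. All 13 neutrophil genes were detected in NK cells, as were all 12 monocyte and macrophage genes, 9 of 12 T cell genes and 6 of 7 B cell genes, with *Pax5* at 0. Barcodes of at most 100 UMIs held 7.87%, 24.1% and 5.48% of each library's 9891861, 8814690 and 10206236 UMIs.

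The promoters of 4 genes on which the results turn are given first. *Ncr1*, a gene of the rule, was seen in both groups of cells described below. *Gzma* and *Klra4*, also genes of the rule, lead one group and *Cxcr6* leads the other. Each is the 250 bases before the annotated start of the gene, read on the gene's own strand, from RefSeq on GRCm38.p6. Capitals mark the letters TCACAC, the core bound by T-box factors such as EOMES and T-bet, or TGTGGT, the core bound by RUNX factors, either as written or as the reverse complement. *Ncr1* lies at chr7:4337465-4337714 on the plus strand, *Gzma* at chr13:113100982-113101231 on the minus strand, *Klra4* at chr6:130067272-130067521 on the minus strand and *Cxcr6* at chr9:123806227-123806476 on the plus strand.
Ncr1: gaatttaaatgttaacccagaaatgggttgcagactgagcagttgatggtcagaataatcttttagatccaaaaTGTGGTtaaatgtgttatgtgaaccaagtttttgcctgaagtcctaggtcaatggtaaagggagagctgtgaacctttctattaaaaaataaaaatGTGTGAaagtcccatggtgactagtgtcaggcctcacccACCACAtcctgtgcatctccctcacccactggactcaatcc
Gzma: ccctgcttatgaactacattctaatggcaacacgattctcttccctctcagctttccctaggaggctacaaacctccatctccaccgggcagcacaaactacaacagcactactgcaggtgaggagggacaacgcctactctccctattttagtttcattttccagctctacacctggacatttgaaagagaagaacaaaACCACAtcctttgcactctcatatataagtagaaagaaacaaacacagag
Klra4: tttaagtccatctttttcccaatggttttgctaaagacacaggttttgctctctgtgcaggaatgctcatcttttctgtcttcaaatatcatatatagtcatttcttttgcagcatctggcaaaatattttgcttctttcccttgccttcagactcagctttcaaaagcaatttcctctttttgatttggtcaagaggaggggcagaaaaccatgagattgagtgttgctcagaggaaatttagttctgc
Cxcr6: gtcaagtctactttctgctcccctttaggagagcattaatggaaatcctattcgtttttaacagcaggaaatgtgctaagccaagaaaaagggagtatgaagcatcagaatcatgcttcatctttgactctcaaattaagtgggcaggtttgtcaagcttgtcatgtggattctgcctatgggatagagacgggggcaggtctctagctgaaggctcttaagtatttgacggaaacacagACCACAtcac
*Ncr1* held 1 T-box core, 80 bases before the start, and 2 RUNX cores, 176 and 41 bases before it. *Gzma* and *Cxcr6* held 1 RUNX core each, 50 and 10 bases before the start, and *Klra4* held neither. Among the 15 genes with the highest ratio of NK cells to all other cells, named below, 13 had a promoter in the reference. The RUNX core stood in 7 of the 13 (*Gzma*, *Gzmb*, *Klrb1c*, *Klre1*, *Klrk1*, *Ncr1* and *Xcl1*), against 14.2% of 27025 promoters of this length. The T-box core stood in 4 of the 13 (*Gzmb*, *Ncr1*, *Txk* and *Xcl1*), against 12.2%. Of the 7 genes with a RUNX core, 5 were rule genes. Among the leading genes of the cluster that *Gzma* and *Klra4* lead, 8 had a promoter, of which 0 held the T-box core and 1 the RUNX core. Among those of the cluster that *Cxcr6* leads, 8 had a promoter, of which 2 held the T-box core and 3 the RUNX core. Where the reference lists several starts for a gene, the first was used. A match describes the letters only, and no binding was measured.

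The 8 genes of the rule are high in NK cells by choice, and their levels are a description. Granzyme A (*Gzma*), a protease of the killing granules, averaged 2682 ± 448 CPM in NK cells (SD, n = 3 libraries) and 22.9 ± 3.40 in all other cells, T cells included. The granule membrane gene *Nkg7* averaged 3463 ± 353 and 199 ± 20.01. *Xcl1*, a chemokine for cross-presenting dendritic cells, averaged 2096 ± 235 and 39.2 ± 9.08. *Ncr1* averaged 409 ± 84.9 and 4.71 ± 2.63. *Klra4* and *Klra8*, receptors of the Ly49 family, averaged 668 ± 45.6 and 552 ± 82.6 in NK cells against 0.684 ± 1.18 and 1.28 ± 2.21 in T cells. Each of these genes was higher in NK cells than in T cells and in all other cells in 3 of 3 libraries.

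Genes outside the rule that most set NK cells apart were receptors, granule genes and parts of their signaling. Among genes of at least 200 CPM in NK cells, the 15 with the highest ratio to all other cells held 7 of the 8 rule genes and 8 others. The others were *Klra7* (69.1 times the level in all other cells), *Klrb1c* (60.6), *Klra9* (50.8), granzyme B (*Gzmb*, 47.7), the Tec family kinase *Txk* (34.05), the serpin *Serpinb6b* (29.02), *Klrd1* (27.9) and *Il2rb*, the receptor chain shared by interleukin-2 and interleukin-15 (26.5). *Nkg7* did not reach these 15, and T cells carried it too, at 642, 713 and 775 CPM. Against T cells alone, the 10 highest ratios held 6 rule genes, *Klra9*, *Klrb1c* and *Gzmb*, and the chemokine *Ccl4*, at 2456, 1157 and 4101 in NK cells and 193, 182 and 111 in T cells. *Ccl5* stood at 8619.5, 10645 and 11995 in NK cells and 3706, 3387 and 2957 in T cells. The adaptors of activating receptors set NK cells apart far less: *Tyrobp*, encoding DAP12, stood at 3430.4, 4039.5 and 3502 in NK cells and 3070.2, 2959 and 3454 in all other cells, and *Fcer1g* at 3198, 3221 and 3180.2 and 2243, 2187 and 2599. *Car2*, carbonic anhydrase 2, which had been listed among erythroid genes, stood at 298, 328 and 259 in NK cells against 15.3, 20.2 and 137 in T cells, while *Alas2*, which erythroid cells use to make heme, had 0, 1 and 1 UMIs in NK cells. *Car2* was singled out after its values were seen.

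**Figure D1:**
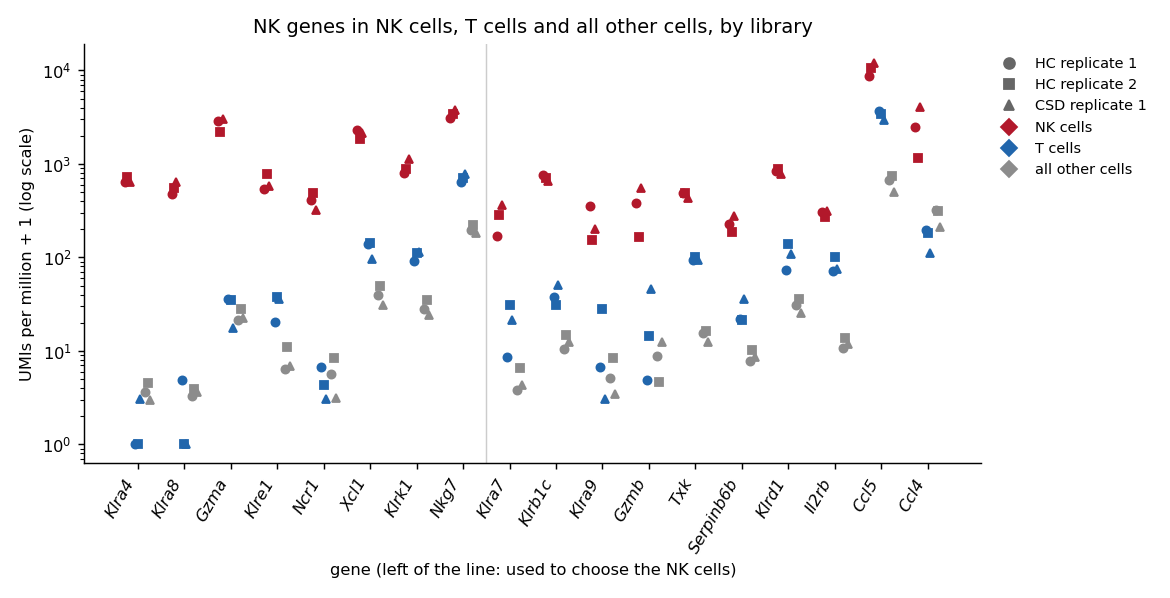
Levels of 18 NK genes in CPM plus 1 (log axis) for each library, in NK cells (red), T cells (blue) and all other cells (gray). The 8 genes left of the line chose the NK cells, and the 10 on the right did not. *Klra4* averaged 668 in NK cells and 0.684 in T cells, and *Ccl5* stood at 3706, 3387 and 2957 in T cells.

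The NK cells differed among themselves in how many of these genes each showed. With every cell thinned to 500 UMIs, *Nkg7* was detected in 75.8%, 82.4% and 82.8% of NK cells, against 26.1%, 27.8% and 31.5% of T cells. *Gzma* was detected in 48.1%, 49.1% and 49.9% of NK cells and 1.61%, 1.69% and 0.735% of T cells, and *Ncr1* in 19.4%, 21.7% and 15.5% and 0.431%, 0.307% and 0.152%. Without thinning, *Gzma* was seen in 64.4%, 65.9% and 60.3% of NK cells, whose median depth was 2080, 1982 and 1930 UMIs beside 2547, 2887 and 2384 in T cells. The 8 rule genes made up a median of 0.956%, 1.01% and 1.03% of the UMIs of an NK cell, and 10 of 173 cells held all 8. Just inside the limits lay 10 cells with 0.4 to 0.5% of UMIs in these genes, 20 with 3 of the 8 detected and 18 with 1 Cd3 UMI. Just outside lay 14 cells with 0.3 to 0.4%, 10 with 2 of the 8 detected and 6 with 2 Cd3 UMIs. Another 48 cells passed both NK gene limits but held 2 or more Cd3 UMIs. In those 48 cells *Ncr1* stood at 62.9, 201 and 90.6 CPM and *Gzma* at 294, 336 and 1337.

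Ly49 receptors were spread over the cells unevenly. Each NK cell expresses its own subset of *Klra* genes, and of 11 in the files 9 had a UMI in NK cells. No *Klra* gene was detected in 45 of 173 cells, 1 gene in 42 cells, 2 genes in 39, 3 in 29, 4 in 15 and 5 in 3. *Klra4* was seen in 17 of 59, 13 of 41 and 29 of 73 cells, and *Klra8*, which encodes the activating receptor Ly49H, in 23, 15 and 33. Among the receptors that were not used by the rule, *Klra7* was seen in 13, 16 and 23 cells, *Klra9* in 18, 10 and 14, *Klra3* in 6, 3 and 18, and *Klra1* in 5, 4 and 10. Zero UMIs at this depth do not show that a cell lacks the receptor. *Klra* genes are close relatives: in the last 500 bases of their annotated transcripts, 7.79% of the 90-base stretches of *Klra3* also occur in *Klra10* and 1.22% of those of *Klra9*, so a few reads of these genes could not be assigned to 1 of them. No other *Klra* gene shared a stretch of this length.

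The NK cells fell into 2 clusters, of which the smaller, with 57 of the 173 cells, had higher levels of ILC1 transcripts. Not every cell of it showed them: a *Cxcr6* UMI was seen in 61.4% of its cells, *Tmem176b* in 43.9%, *Il7r* in 19.3% and *Itga1* in 5.26%. The clusters rest on the same genes that describe them, so no test is given. Cluster 1 held 116 cells, 38, 31 and 47 of the 3 libraries, and had among its leading genes *Klra4*, *Klra8*, *Klf2*, *Gzma*, *BC035044*, *Eomes*, *Gm15518*, *As3mt* and *Phactr3*. Cluster 2 held 57 cells, 21, 10 and 26, and led with *Cxcr6*, *Gzmc*, *S100a4*, *Klrb1b*, *Inpp4b*, *Ramp1*, *Rgs1*, *Tmem176b*, *Cd160* and *Gm21092*. *Gzma* and *Eomes* are NK markers, and cluster 1 is called NK-like. *Gzma*, *Klra4* and *Klra8* were used by the rule that chose the cells, and *Eomes* was not. The rule genes made up a median of 1.14% of the UMIs of a cell in cluster 1 and 0.721% in cluster 2. Cells of cluster 2 thus lay nearer the lower limit of the rule. How the size of cluster 2 depends on that limit was not tested. *Cxcr6*, *Inpp4b* and *Tmem176b* are on the list of ILC1 markers, and cluster 2 is called ILC1-like, a population that the label of these cells does not separate.

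The factors *Eomes* and *Klf2* stood higher in cluster 1 and genes of tissue residence in cluster 2. *Eomes* stood at 68.4, 168 and 188 CPM in NK-like cells and 0, 0 and 47.98 in ILC1-like cells. *Klf2*, a factor that drives the genes of circulation, stood at 662, 631 and 489.8 and 0, 148 and 79.97. In all 3 libraries both genes were higher in NK-like cells. *Cxcr6*, the receptor for CXCL16 that holds lymphocytes in tissues, stood at 0, 28.05 and 0 in NK-like and 521, 789 and 416 in ILC1-like cells. *Rgs1*, which damps chemokine signaling, stood at 194, 182 and 198 and 921, 1183 and 736, *Tmem176a* at 57.03, 70.1 and 41.7 and 280.4, 444 and 208, and *Il7r* at 22.8, 28.05 and 52.1 and 260.4, 49.3 and 95.96. Each of these 4 was higher in ILC1-like cells in 3 of 3 libraries. *Itga1*, which encodes CD49a, was near the limit of detection in both, at 22.8, 0 and 10.4 and 40.1, 0 and 15.99. Together the 15 genes listed for ILC1s, *Cd3g* among them, summed to 855 CPM in NK-like and 3420 in ILC1-like cells. T cells also had a high sum of these genes, at 2678, 2388 and 2110 CPM. In ILC1-like cells *Rgs1* held 116, *Ltb* 110 and *Cxcr6* 68 of the 454 UMIs of the list.

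Receptors and effector genes also divided between the clusters. *Klra8* stood at 741, 687 and 990.0 in NK-like and 0, 49.3 and 95.96 in ILC1-like cells, and *Klra7* at 262, 365 and 459 and 0, 0 and 208. *Klra9* went the other way, at 308, 126 and 115 and 441, 246 and 336. No *Klra* gene was detected in 14 of 116 NK-like and 31 of 57 ILC1-like cells. *Gzma* stood at 4289, 2566 and 4575 and 341, 789 and 624, whereas *Gzmc*, another granzyme, stood at 0, 14.02 and 0 and 120.2, 98.6 and 384. *Gzmb* had no fixed order, at 411, 154 and 219 and 341, 197 and 1056. *Ccl5* stood at 10927, 11780.4 and 14829.9 and 4567, 6654 and 7645, higher in NK-like cells in 3 of 3 libraries, and *Cd7* at 422, 575 and 542 and 841, 2169 and 1199, higher in ILC1-like cells in 3 of 3. The receptors *Ncr1* (445, 407 and 354 against 361, 789 and 272) and *Klrb1c* (787, 617 and 667 against 701, 1035 and 656) were present in both. *Ncr1* was used by the rule that chose the cells of both clusters, and *Klrb1c* was not. *Cxcr6* and the pair *Klra4* and *Klra8* were almost never seen in the same cell: 36 cells had *Cxcr6* alone, 90 had *Klra4* or *Klra8* alone, 1 had both and 46 had neither. The 12 T cell genes summed to 263 and 241 CPM in the clusters. *Cd3d*, *Cd3e* and *Cd3g* are among them and the rule caps these at 1 UMI, so the sum cannot show whether T cell genes separate the clusters. In cluster 1, 10 of 116 cells (8.62%) held 1 Cd3 UMI, against 8 of 57 (14.0%) in cluster 2. T cells carried *Cxcr6* too, at 224, 161 and 226. All 12 genes listed for mature NK cells, *Ly6c2* among them, had a UMI, and together they held 200, 121 and 249 UMIs. These are 1454, 1321 and 1571 CPM, beside 1551, 1438 and 1487 in empty barcodes, and the part of free RNA was not tested. *Ly6c2* was seen in 45.7% of NK-like and 49.1% of ILC1-like cells, whereas *Klrg1* had 2, 1 and 7 UMIs in all NK cells and perforin (*Prf1*) 5, 3 and 5.

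**Figure D2:**
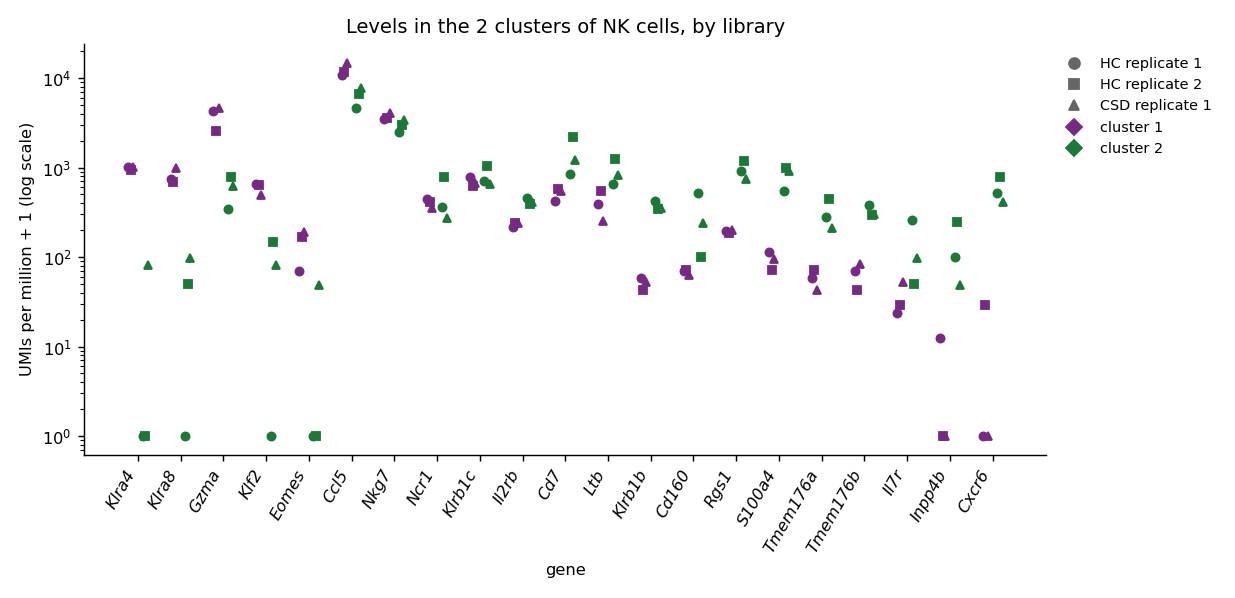
Levels of 21 genes in CPM plus 1 (log axis), for each library, in cluster 1 (NK-like, purple, 116 cells) and cluster 2 (ILC1-like, green, 57 cells). *Cxcr6* stood at 0, 28.05 and 0 in cluster 1 and 521, 789 and 416 in cluster 2, and *Klra4* at 1004, 926 and 1011 and 0, 0 and 79.97, while *Ncr1* and *Klrb1c* overlapped.

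Among all cells, the share of NK cells in CSD lay within the counting intervals of both HC libraries. NK cells made up a share of 2.27% (exact Clopper-Pearson 95% interval 1.73 to 2.92%) and 2.41% (1.73 to 3.25%) in the HC libraries and of 2.65% (2.08 to 3.32%) in CSD. The HC mean was 2.34% ± 0.0982 (SD, n = 2) and CSD lay 0.309 percentage points above it. These intervals cover counting error only, and 1 library against 2 cannot reach a p under 0.05 in a permutation test. With cells of 5% or more neutrophil UMIs left out, the shares were 3.39% (2.58 to 4.36%), 4.04% (2.91 to 5.43%) and 5.61% (4.41 to 7.03%), so that CSD lay above the intervals of both HC libraries. Among T cells, NK cells and the 48 Cd3-bearing cells named above they were 26.0%, 29.1% and 32.0%. The position of CSD against HC thus differed between denominators, and no test of the share is given. ILC1-like cells accounted for 35.6% (23.6 to 49.1%) and 24.4% (12.4 to 40.3%) of the NK cells in the HC libraries and for 35.6% (24.7 to 47.7%) in CSD. The share in CSD equaled that in HC replicate 1 to 3 digits, and all 3 intervals overlap.

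Few transcripts of NK cells passed the test between CSD and HC. UMIs were summed over the NK cells of each library and 1624 genes with a UMI in over 15% of the cells were tested with edgeR. Of these, 3 passed an adjusted p of 0.05, 0.185% of the genes tested, and all 3 were lower in CSD: the MHC class II genes *H2-Aa* and *H2-Eb1*, and *Mgp*, matrix Gla protein, a gene of fibroblasts and vessel walls. The test had 1 residual degree of freedom, since only the 2 HC libraries repeat a condition, and the CSD library was taken to vary as they do. At an unadjusted p under 0.05 stood 64 genes, and DESeq2 on the same genes called none, with 7 at an unadjusted p under 0.05. Without TMM scaling, or with only cells of at least 1000 UMIs, edgeR also called none, and over all the alternatives tried the count ran from 0 to 14. The median log2 fold change of all 1624 genes was -0.016. CSD lay above both HC libraries for 531 genes (32.7%) and below both for 516 (31.8%).

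**Figure D3:**
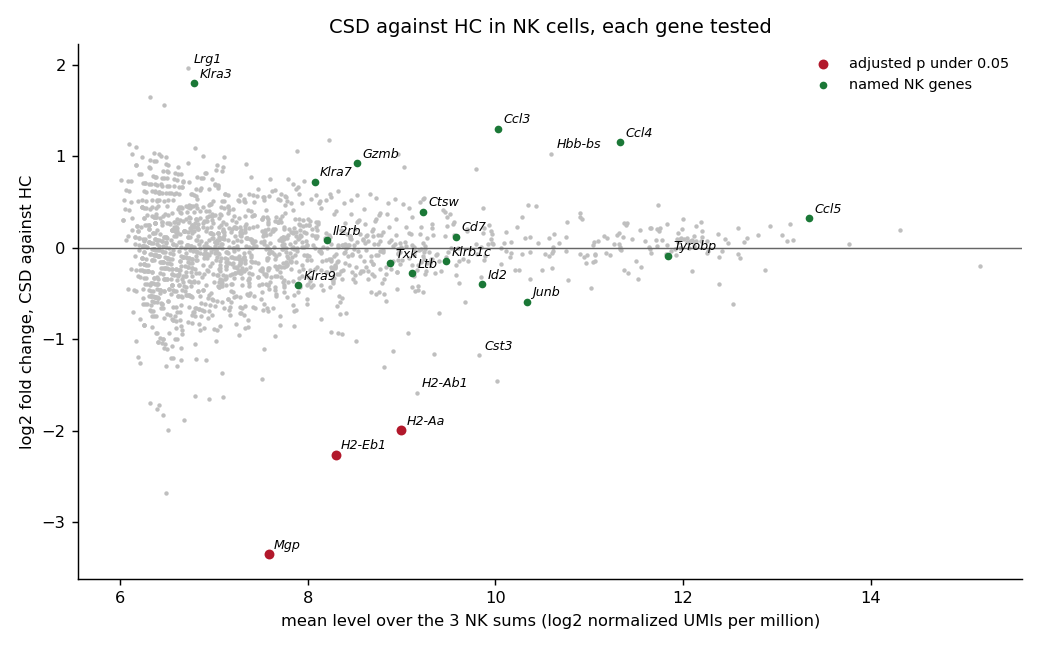
Log2 fold change between CSD and HC against the mean level over the 3 NK sums (log2 normalized CPM), 1 point for each of the 1624 genes tested. Red points are the 3 genes with an adjusted p under 0.05, *H2-Aa*, *H2-Eb1* and *Mgp*, all below 0. Green points are a chosen set of genes named in the text, not all of them particular to NK cells (*Tyrobp* and *Junb* among them), and none passed.

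MHC class II genes present antigen to CD4 T cells and are made by dendritic cells, B cells and macrophages. *H2-Aa* stood at 705, 655 and 170.4 CPM in NK cells, from 97, 60 and 27 UMIs (log2 fold change -1.998 ± 0.34 (SE), adjusted p = 0.0425 by edgeR). The 2 HC libraries lay close together and CSD lay far below both. *H2-Eb1* stood at 429, 426 and 88.3 (log2 fold change -2.27 ± 0.40 (SE), adjusted p = 0.0425 by edgeR), again with CSD below both. *H2-Ab1*, at 792, 677 and 246, did not pass (log2 fold change -1.59 ± 0.32 (SE), adjusted p = 0.0978 by edgeR), nor did *Cd74*, the invariant chain, at 1010.2, 568 and 359.7 (log2 fold change -1.17 ± 0.36 (SE), adjusted p = 0.582 by edgeR). In CSD, *H2-Aa* was found in 19 of 73 NK cells and never above 3 UMIs in a cell, against 43 of 59 and 31 of 41 cells with up to 12 and 8 UMIs in HC. The same transcripts were more abundant outside NK cells: *H2-Aa* stood at 2516, 2113 and 1126 in empty barcodes and 2369, 1702 and 975 in all other cells, lower in CSD in both, and at 2036, 1235 and 1300.2 in T cells. The level in NK cells was 0.28, 0.31 and 0.151 times that in the empty barcodes of the same library. The log2 fold change of *H2-Aa* in empty barcodes was -0.93 (adjusted p = 0.717 by edgeR). The part of free RNA in this difference was not tested.

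*Mgp* stood at 203, 349 and 25.2 CPM in NK cells, from 28, 32 and 4 UMIs (log2 fold change -3.36 ± 0.60 (SE), adjusted p = 0.0425 by edgeR), with CSD far below both HC libraries. It was lower in CSD outside NK cells as well, with 603, 309 and 30.8 in T cells, 1107, 1313 and 148 in all other cells and 1686, 1353 and 572 in empty barcodes. Its level in NK cells was 0.121, 0.258 and 0.0441 times that in empty barcodes. The 9 fibroblast and endothelial genes listed summed to 363, 491 and 63.1 in NK cells and 2638, 2059 and 828 in empty barcodes, with *Col1a2*, *Cldn5* and *Ly6c1* at 0 UMIs in NK cells. The part of free RNA was not tested here either. Of 6 monocyte and macrophage genes tested, 5 had CSD below both HC libraries, against 31.8% of all genes, and none passed: *Apoe* stood at 1882, 721 and 486 (log2 fold change -1.46 ± 0.44 (SE), adjusted p = 0.568 by edgeR) in NK cells and 6718, 2187 and 2510.1 in empty barcodes.

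**Figure D4:**
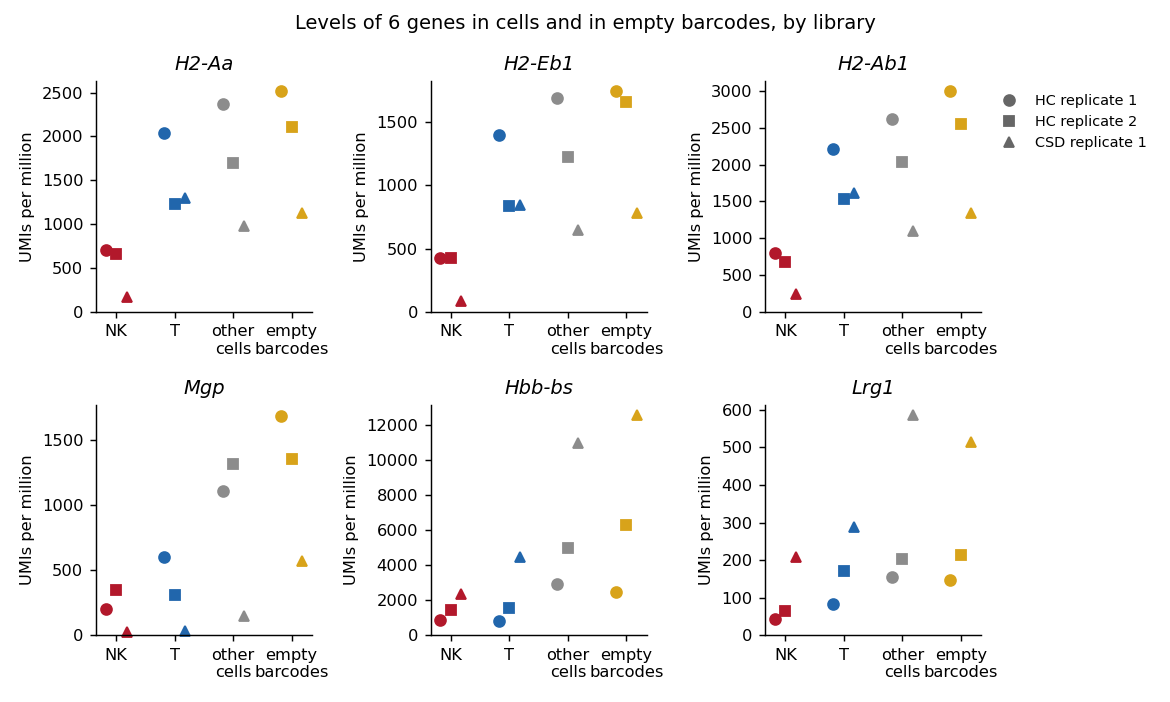
Levels of 6 genes in CPM (linear axes from 0) for each library, in NK cells, T cells, all other cells and empty barcodes. *H2-Aa*, *H2-Eb1*, *H2-Ab1* and *Mgp* were lowest in CSD in NK cells, all other cells and empty barcodes, and *Hbb-bs* and *Lrg1* were highest in CSD in all 4 sets.

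No gene passed as higher in CSD, although 5 did with the older edgeR setting (legacy=TRUE). Those 5 also had the smallest p among genes with CSD above both HC libraries, and they were *Lrg1*, *Hbb-bs*, *Klra3*, *Ccl4* and *Ccl3*. *Lrg1*, a secreted glycoprotein that neutrophils make, stood at 43.6, 65.5 and 208 in NK cells (log2 fold change 1.96 ± 0.47 (SE), adjusted p = 0.218 by edgeR) and at 146, 214 and 515 in empty barcodes. *Hbb-bs*, a globin gene, stood at 901, 1419 and 2328 (log2 fold change 1.03 ± 0.25 (SE), adjusted p = 0.218 by edgeR) and at 2473, 6278 and 12539.7. Both were thus also highest in CSD among empty barcodes. *Klra3*, a Ly49 receptor, stood at 72.7, 43.7 and 215 (log2 fold change 1.80 ± 0.45 (SE), adjusted p = 0.266 by edgeR), and empty barcodes held 2.57, 3.76 and 1.79, below its level in NK cells in each library. It was seen in 18 of 73 cells in CSD against 6 of 59 and 3 of 41. At 500 UMIs a cell, 3.50%, 2.43% and 8.73% of NK cells and 0.676%, 0.561% and 0.463% of T cells had a UMI. Of the genes below both HC libraries that did not pass, beside *H2-Ab1*, those with the smallest p were *Cst3* at 1054, 1179 and 492, *Mrpl15* at 131, 120.1 and 18.9, *Tsc22d4* at 189, 164 and 56.8 and *Ptpn6*, the phosphatase SHP-1 of inhibitory receptors, at 167, 153 and 50.5 (log2 fold change -1.66 ± 0.50 (SE), adjusted p = 0.568 by edgeR).

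*Ccl4* and *Ccl3*, chemokines that activated NK cells release, lost their place when 1 CSD cell was left out. *Ccl4* stood at 2456, 1157 and 4101 (log2 fold change 1.15 ± 0.30 (SE), adjusted p = 0.338 by edgeR) and *Ccl3* at 1025, 338 and 1760.5 (log2 fold change 1.30 ± 0.39 (SE), adjusted p = 0.568 by edgeR). One NK-like cell of the CSD library, with 3022 UMIs, held 392 of its library's 650 *Ccl4* UMIs, 209 of 279 *Ccl3* UMIs, 135 of 338 *Xcl1* UMIs and 9 of 26 *Ifng* UMIs. The same cell held 13 of 1901 *Ccl5* UMIs and 1 of 87 *Gzmb* UMIs. Without it, *Ccl4* stood at 1660 CPM in CSD and its log2 fold change was -0.16 ± 0.33 (SE), adjusted p = 0.993 by edgeR. That of *Ccl3* was -0.67 ± 0.46, adjusted p = 0.979. In HC replicate 1 the cell with most held 88 of 338 *Ccl4* UMIs, and in HC replicate 2 14 of 106, and both HC cells stayed in. With the UMIs of the 5 highest cells left out in every library, *Ccl4* stood at 785, 644 and 1167 CPM, still highest in CSD. *Ccl3* then stood at 487, 175 and 221. The 5 cells are a larger part of the 59 and 41 HC cells than of the 73 CSD cells. Their other UMIs stayed in the total. The share of cells with *Ccl4* at 500 UMIs was 33.1%, 35.7% and 40.2% of NK cells, beside 7.28%, 7.07% and 6.18% of T cells. For *Ccl3* it was 27.4%, 15.4% and 16.1% of NK cells and 4.34%, 4.35% and 2.90% of T cells, and without thinning *Ccl3* was seen in 31 of 59, 19 of 41 and 27 of 73 NK cells, the lowest share in CSD. *Gzmb* stood at 385, 164 and 549 (log2 fold change 0.92 ± 0.39 (SE), adjusted p = 0.986 by edgeR), and in CSD 5 cells held 51 of its 87 UMIs.

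**Figure D5:**
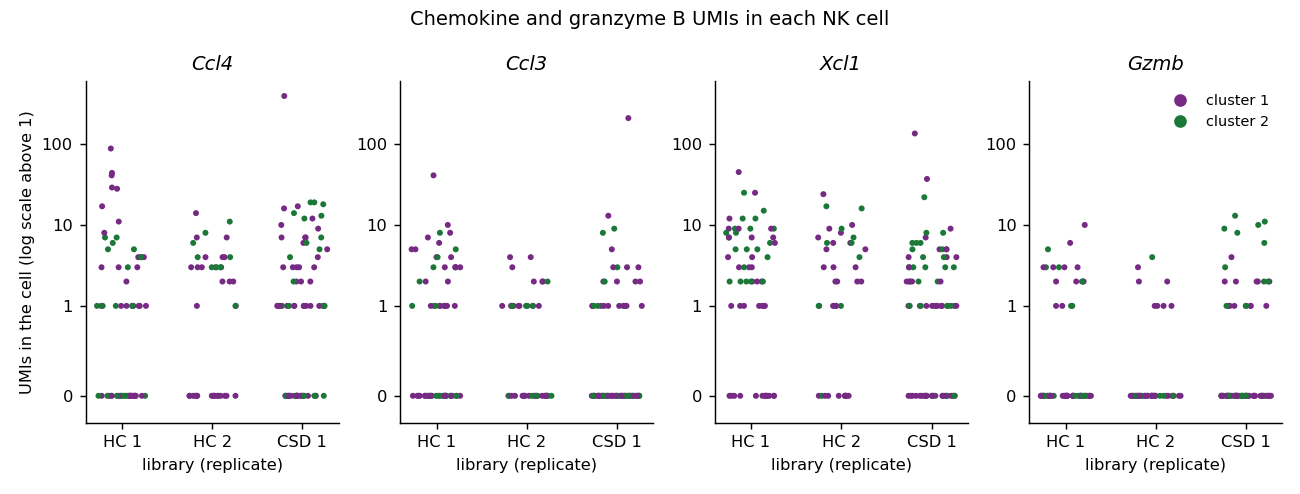
UMIs of *Ccl4*, *Ccl3*, *Xcl1* and *Gzmb* in each NK cell by library (1 point a cell, 59, 41 and 73 cells; axis linear up to 1 and log above; purple for cluster 1, green for cluster 2). A single CSD cell lies apart with 392 *Ccl4*, 209 *Ccl3* and 135 *Xcl1* UMIs, while *Gzmb* has no such cell.

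Genes of killing gave no call between CSD and HC. Of 16 granule genes 8 passed the filter on low values and none passed the test (median log2 fold change 0.36, beside -0.02 over all genes). Cathepsin W (*Ctsw*) stood at 538, 546 and 713, serglycin (*Srgn*), the scaffold of the granule core, at 610.5, 709.6 and 827, and *Serpinb9*, which shields the cell from its own granzyme B, at 153, 229 and 101. Of 19 genes of activating receptors and their signaling 12 were tested and none passed (median -0.08), with 3 genes higher in CSD by estimate and 9 lower. *Klrb1c* stood at 756, 709.6 and 663, *Cd244* at 145, 98.3 and 119.9 and *Hcst*, the DAP10 adaptor, at 872, 677 and 782. Of 21 inhibitory receptor genes 8 were tested and none passed (median 0.03), with *Klrd1* at 843, 884 and 782, *Klrb1f* at 211, 142 and 202, *Klra7* at 167, 284 and 359.7 and *Klra9* at 356, 153 and 202. For these 3 lists the median between the 2 HC libraries, HC replicate 2 against HC replicate 1, was -0.18, -0.21 and -0.60. The rule genes are given with no test: *Ncr1* stood at 414, 491 and 322, *Gzma* at 2856, 2173 and 3016, *Klrk1* at 799, 873 and 1129 and *Nkg7* at 3111, 3461 and 3817.

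Transcription factors, cytokine receptors and cytokines gave no call either. Of 19 factors in the files 6 were tested (median -0.09): *Id2*, which all innate lymphoid cells need, stood at 1068, 949.8 and 769.8, *Eomes* at 43.6, 131 and 133, *Runx3* at 87.2, 131 and 170.4, *Ets1* at 167, 164 and 177, *Irf8* at 225, 404 and 252 and *Klf2* at 422, 524 and 328. *Tbx21*, which encodes T-bet, was too low to test, at 36.3, 65.5 and 18.9. Of 24 cytokine receptor and signaling genes 8 were tested (median 0.05), with *Il2rb* at 305, 273 and 309, *Jak1* at 429, 589.6 and 479.6 and *Stat4*, which carries interleukin-12 signals, at 153, 175 and 101. Of 13 cytokines and chemokines 6 were tested apart from *Xcl1* (median 0.04, and -0.46 without the CSD cell described above), with *Ifng* at 233, 142 and 164 (log2 fold change -0.24, and -0.83 without that cell) and *Ltb* at 487, 699 and 479.6. *Ccl5*, the most abundant, stood at 8619.5, 10645 and 11995 (log2 fold change 0.32 ± 0.14 (SE), adjusted p = 0.986 by edgeR). *Il10* and *Csf2* had no UMI in NK cells. Among genes of immature NK cells 7 of 10 were tested (median 0.10), with *Cd7* at 574, 928 and 801 and *Ctla2a* at 559.6, 786 and 858, and of 12 genes of mature NK cells 4 (median -0.05). Of 26 genes of trafficking 16 were tested (median -0.12), with *Rgs1* at 458, 404 and 410.1 and *Selplg*, the selectin ligand, at 501, 513 and 511.

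Genes that answer to stress hormones, interferon and activation were tested as lists of their own. Of 19 glucocorticoid-responsive genes 6 were tested and none passed (median -0.49; leaving out HC replicate 1 gave -0.71 and leaving out HC replicate 2 gave -0.06): *Tsc22d3*, which encodes GILZ, stood at 174, 164 and 265, *Btg1* at 683, 1179 and 606, *Nfkbia* at 596, 1125 and 644 and *Dusp1* at 334, 459 and 202. *Fkbp5* was too low to test, at 36.3, 43.7 and 50.5. Of 41 interferon-stimulated genes in the files 7 were tested and none passed (median 0.13), with *Ly6e* at 1163, 949.8 and 1199 and *Ifitm3* at 610.5, 611 and 574. Of 22 immediate early genes 14 were tested, 12 of them lower in CSD and none past the threshold (median -0.21). CSD lay below both HC libraries for 8 of the 14, against 31.8% of all genes, and above both for none. *Junb* stood at 1156, 1769 and 959 in NK cells and at 546, 755 and 375 in all other cells, and *Fos* at 632, 611 and 448 and 1017, 1080.0 and 722. Of 12 heat shock genes 9 were tested (median -0.10), of 15 MHC class I genes 10 (median 0.001), of 30 actin genes 28 (median 0.03) and of 109 ribosomal protein genes 85 (median 0.05), with no call in these 4 lists. *B2m*, the light chain of MHC class I, stood at 3256, 3155 and 3710.2 and *H2-K1* at 1642, 1878 and 2215. Of 22 cell cycle genes 5 were tested, all 5 with CSD below both HC libraries, against 31.8% of all genes, and none past the threshold (median -0.35). *Mki67* had 7, 4 and 1 UMIs and *Top2a* 3, 8 and 6. Among the 10 neutrophil genes tested, 8 had CSD above both HC libraries, against 32.7% of all genes, and none passed (median 0.39), and the 13 neutrophil genes were also highest in CSD among empty barcodes, as given above.

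To see whether a difference between CSD and HC was larger in NK cells than in T cells of the same libraries, the interaction was tested over 2117 genes with edgeR, with the library as a block. None passed (0.0%), with 139 at an unadjusted p under 0.05, and DESeq2 called none, with 12 at an unadjusted p under 0.05. The smallest p belonged to *Car2* (log2 difference, NK effect minus T effect, -3.18 ± 0.42 (SE), adjusted p = 0.103 by edgeR), which stood at 15.3, 20.2 and 137 in T cells. For *H2-Aa* this difference was -1.58 ± 0.35 (SE), adjusted p = 0.369 by edgeR, for *Mgp* 0.64 ± 1.48 (SE), adjusted p = 0.939 by edgeR, and for *Ccl4* 1.90 ± 0.36 (SE), adjusted p = 0.272 by edgeR. T cells on their own gave 10 calls among 2016 genes, 5 in each direction, *Mgp* among the 5 that were lower. *H2-Aa* thus passed in NK cells and not in T cells, while the difference between the 2 did not pass. With cells of at least 1000 UMIs alone the interaction gave 13 calls, among them *H2-Aa*, *H2-Eb1*, *H2-Ab1*, *Ccl4* and *Ccl3*, with the CSD cell described above included.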

How the data were processed

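Meningeal cells of 3 libraries, 2 HC and 1 CSD, were profiled by droplet sequencing of transcript 3′ ends. The authors deposited raw UMI counts for 27998 genes and all barcodes, made per the labels with Cell Ranger version 2 on mm10 (submitters' processing notes). Totals were 9891861, 8814690 and 10206236 UMIs. Exact intervals cover counting error only.

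UMIs were summed per library over NK cells and, separately, T cells and barcodes of at most 100 UMIs. Sums were tested with edgeR 4.0.16 in R 4.3.3 (TMM, quasi-likelihood, legacy=FALSE, 2-sided, Benjamini-Hochberg over all genes tested, threshold 0.05), keeping genes with a UMI in over 15% of NK cells (of NK or T cells for the interaction). Each fit had 1 residual degree of freedom, and p-values measure the spread between 2 pooled HC libraries, which may be technical. DESeq2 1.42.0 was an alternative. Levels are CPM of the same sum. NK cells were clustered with scanpy 1.11.5 and leidenalg 0.10.2 at resolution 0.5. Doublets marked by Scrublet, 1 of them an NK cell (of HC replicate 1), were kept in the main results. The Scrublet limit was automatic in the HC libraries and the top 5% of scores in CSD. It marked 1.92%, 0.940% and 5.19% of the cells. The fits were run on 20 draws of simulated counts with known changes and a variation between libraries set in advance. In NK cells a median of 28.2% of log2 changes of 1 and 78.5% of those of 2 passed. For the interaction these were 5.03% and 45.2%, and the lowest draw of each was 0%. A gene that did not pass is thus not shown to be unchanged.

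The members and gene lists were chosen with earlier results of these data known. Genes were named by rule: the 8 rule genes and fixed markers, up to 4 genes of highest level in each list, list genes past the threshold, the 5 of smallest p in a direction where fewer passed, the 15 highest ratios to other cells and 10 to T cells, and 10 leading genes per cluster, with some genes not reported here. *Alas2*, *Car2*, *Cd244*, *Fkbp5*, *Ifng*, *Klra1*, *Runx3*, *Serpinb9*, *Stat4*, *Tbx21* and genes given only for having no UMI were named after their values were seen. Listed symbols that did not match the files were not analysed here. Alternatives changed scaling, tool, gene filter, cell limits, rule and resolution.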

Additional observations from a re-analysis of the deposited data

How the results depend on the processing

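The count of 3 genes past the threshold in NK cells depended on the settings. It was 0 without TMM scaling, with DESeq2, with genes of at least 20 UMIs, with no filter on low genes and with cells of at least 1000 UMIs. It was 12 with the older quasi-likelihood setting (legacy=TRUE), of which 5 (*Ccl3*, *Ccl4*, *Hbb-bs*, *Klra3* and *Lrg1*) were higher in CSD, 11 with genes seen in over 5% of NK cells, 14 with Scrublet doublets removed, 12 with rule genes at 0.8% of UMIs or more and 14 with no Cd3 UMI allowed. It was 3 with genes changed in empty barcodes left out, of which there were none. Among alternatives chosen after seeing the data, it was 9 with cells over 5% neutrophil UMIs removed, 12 in cluster 1 alone and 3 without the CSD cell holding most *Ccl4*. *H2-Aa*, *H2-Eb1* and *Mgp* were among the calls in each setting that gave any. The interaction count of 0 became 1 without TMM scaling, 13 with cells of at least 1000 UMIs and 9 with all other cells in place of T cells. The CSD minus HC share of 0.309 percentage points was 0.408 with cells of at least 1000 UMIs, 0.44 without Scrublet doublets, 0.0545 with the 0.8% rule, 0.161 with no Cd3 UMI, 1.9 without neutrophils in the denominator and 4.48 among T, NK and Cd3-bearing NK gene cells, and it ranged from 0.24 to 0.379 with 1 HC library left out. The Scrublet limit differed between HC and CSD, as given above. The number of clusters was 4 at resolution 0.8. *Gzmb* turned to -0.41 (log2) in cluster 1 alone, and *Ccl3* and *Ccl4* turned to -0.67 and -0.16 without the 1 CSD cell. Of the other tested values for named genes, 138 kept their direction and side of the threshold, 15 lost the call and 53 gained one, and all 30 untested values with 1 HC library left out kept their sign. Of 368 list medians under the alternatives, 92 moved by more than a limit set from the 2 HC libraries. The limit was the size of the list's median difference between them, divided by the square root of 2. For ILC1 genes that difference was 0.004, so that very small changes counted as moved. With 1 HC library left out, the sign changed for 6 of 23 lists: without HC replicate 1 activating receptors (0.03), immature NK (-0.19) and cytokine receptors (-0.15), and without HC replicate 2 inhibitory receptors (-0.15), transcription factors (0.09) and mature NK (0.06). The glucocorticoid median of -0.49 was -0.71 and -0.06 without HC replicate 1 and 2, and that of interferon-stimulated genes 0.06 and 0.02. The causes were not tested. A planned limit of 2% neutrophil UMIs left no NK cell. Leaving out an HC library leaves 1 against 1, a value with no test. No paired analysis was possible because the labels do not pair an HC pool with the CSD pool. At this depth 1624 genes had a UMI in over 15% of NK cells.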
